A study of Mus musculus with 6 samples.

Results

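Genes for potassium, sodium and calcium channels and for the volume-regulated anion channel were examined in primary mouse embryonic fibroblasts (pMEFs, cells grown out of disaggregated mid-gestation embryos whose internal organs had been removed). Members were picked by gene symbol alone, as the pore and auxiliary subunit genes named Kcn, Scn, Cacn and Lrrc8, and numbered 109 of the 17512 genes in the count table. RNA-seq was carried out on 3 HAT1 WT lines (36, 47 and 78) and 3 HAT1 KO lines (33, 41 and 72), untreated and all on a C57bl6 strain background. HAT1 is the acetyltransferase that marks newly made histone H4 before it is deposited on DNA, and the comparison of genotypes asks which transcripts differ when the gene is lost. Each numbered line was 1 replicate. A pMEF culture is a mixture of embryonic cells, and the labels do not say which lines came from 1 litter.

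Ion channels are membrane pores built from a pore-forming subunit, often joined by auxiliary subunits that set its gating and its route to the surface. Potassium channels hold the resting potential negative, voltage-gated sodium and calcium channels open on depolarization, and LRRC8 proteins form the anion channel through which swollen cells lose chloride and organic solutes. Fibroblasts do not fire action potentials but use potassium channels, calcium entry and volume regulation in migration, contraction and division.

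The targeted gene was lower in each KO line but still counted there: Hat1 stood at 17.4, 23.0 and 20.1 CPM in the WT lines and at 10.2, 10.0 and 10.3 CPM in the KO lines (CPM, counts per 1000000 after scaling between libraries). Its log2 fold change was -0.99 ± 0.12 (SE, edgeR adjusted p = 0.0376). The libraries held 67720628 to 98786746 counts. All 12 on a list of fibroblast genes passed the filter and together took 46430 to 78540 CPM. Most of this was Col1a1 and Col1a2, with WT means of 34800 and 16680 CPM. Passing the filter does not tell cell types apart, since all 12 macrophage markers passed it too. A list of 12 macrophage markers took 2702 to 3102 CPM in the WT lines and 1383 to 1812 CPM in the KO lines, and all 12 were lower in HAT1 KO. Several defining markers of neurons and of skeletal muscle were not analysed here. Y-linked expression was not balanced, since the summed counts of 4 Y-linked genes were 12841 and 13788 in WT lines 47 and 36, 231 in WT line 78 and 4 to 8 in the KO lines. Lane 8 held WT line 36 alone, while lanes 6 and 7 held both genotypes. KO line 72 stood apart from the rest, and was the highest or the lowest line for 52 of 78 tested channel genes (66.7%), against 51.5% of all tested genes.

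Most channel genes were barely transcribed in these cells. The 31 genes that did not pass the filter on low counts had at most 64 counts in all over the 6 libraries. Among the 78 tested genes, the median level was 1.69 CPM, against 17.5 CPM over all 14773 tested genes. To compare genes, levels were divided by exon length, and on that scale 25 of the 109 genes reached a mean of 1 CPM per kb and 51 stayed under 0.1 CPM per kb. The 10 highest genes held 65.5% of the summed level of all members. The median ratio of the highest to the lowest line was 3.48 for the tested channel genes and 1.45 for all tested genes. Genes without a count in some line were left out of this ratio. The comparison was not matched for level, and such ratios grow with counting error at low counts. Well-counted members such as Lrrc8a (1.09), Cacna1g (1.27) and Cacnb3 (1.29) had small ratios, while Kcne4 (28.9) did not.

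The leading transcripts were accessory subunits and a few pores. Among them were Cacnb3, a cytoplasmic beta subunit that carries calcium channel pores to the surface, with a mean of 15.2 CPM per kb over the 6 lines, and Lrrc8c, with 12.3 CPM per kb. Cacna1g, the pore of a T-type calcium channel that opens at small depolarizations, reached 9.63 CPM per kb, and Cacna1c, the pore of the L-type channel of cardiac and smooth muscle, reached 5.43 CPM per kb. Scn2a, the highest of the sodium channel pore genes, had a mean of 0.350 CPM per kb. Among potassium channel genes, the highest were the auxiliary subunits Kcne4 (6.96 CPM per kb) and Kcnab2 (5.72), followed by the calcium-activated Kcnn4 (5.30), the K2P leak channel genes Kcnk6 (3.63) and Kcnk13 (3.62) and the inward rectifier Kcnj2 (3.53), all as levels in CPM per kb.

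**Figure D1:**
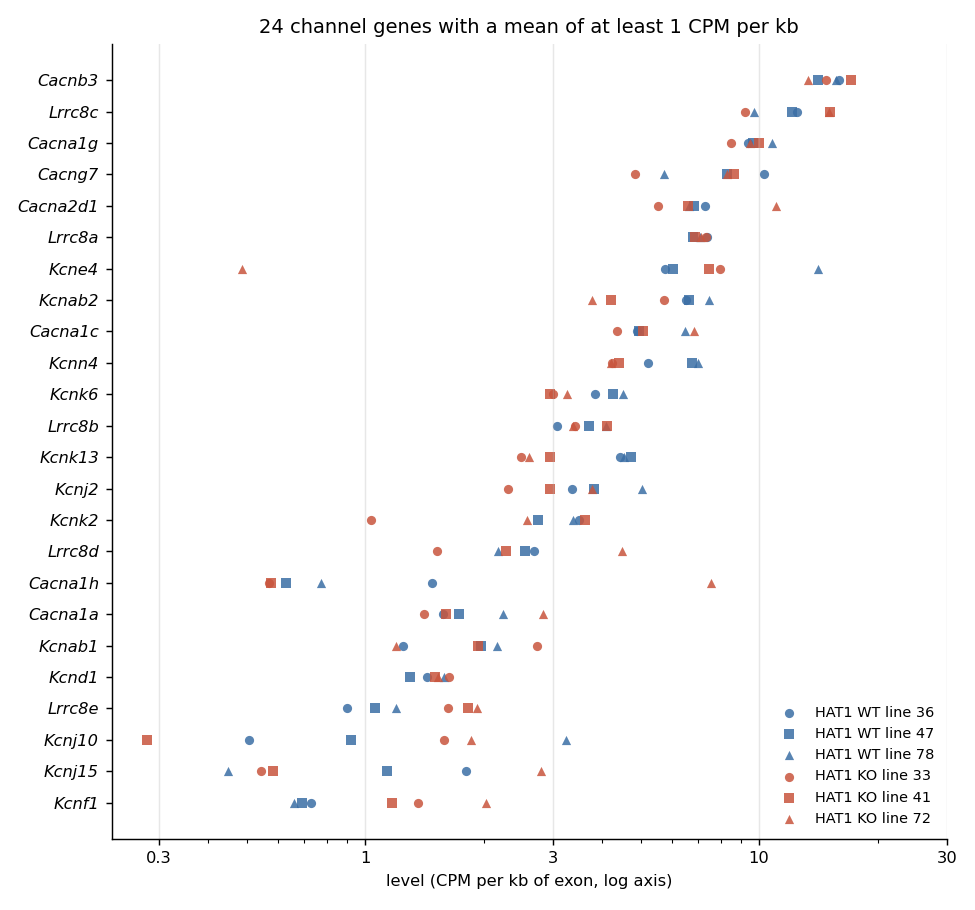
Level in each line, in CPM per kb of exon on a log axis, of 24 channel genes with a mean of at least 1 CPM per kb, from Cacnb3 at the top to Kcnf1 at the bottom (blue HAT1 WT, red HAT1 KO, marker shape by line). Most genes keep their lines close together, while single triangles of KO line 72 lie far from the rest for Kcne4 (0.488 CPM per kb) and Cacna1h.

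Summed over all 109 members, the level was 152.8, 145.1 and 158.5 CPM per kb in WT lines 36, 47 and 78 and 125.6, 142.6 and 166.7 CPM per kb in KO lines 33, 41 and 72. The genotypes overlapped, with means of 152.1 ± 6.75 and 145.0 ± 20.6 CPM per kb (SD, n = 3 each).

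The genotypes were compared gene by gene in a fit over all tested genes. At an adjusted p under 0.05, 1 of the 78 tested channel genes passed, the K2P gene Kcnk13, which was lower in HAT1 KO, while 0.528% of all tested genes passed. The study itself set its limits at 1.5-fold and an unadjusted p under 0.05. These were met by 10 channel genes (12.8%), against 6.11% of all tested genes. HAT1 KO had the lower level in 6 of them (7.69% of members, 4.62% of all tested genes) and the higher level in 4 (5.13% of members, 1.5% of all tested genes). On the unadjusted p alone, 8 members were lower and 4 higher, in all 15.4% of members beside 14.6% of all tested genes. The 3 KO lines lay wholly below the WT lines for 8 members and wholly above them for 5, beside 12.4% and 9.59% of all tested genes. Without KO line 33 the higher count was 7, and 1.63% of all genes tested were then higher. With sequencing lane as a term the counts were 3 lower and 2 higher, beside 3.17% lower and 0.406% higher over all tested genes, and no channel gene then passed at an adjusted p. Of the tested members, 40 had a negative and 38 a positive log2 fold change, with a median of -0.01, beside 0.01 over all tested genes. Fitted changes of at least 2-fold were seen for 12 of 78 members (15.4%) and for 5.21% of all tested genes, without matching for level. Only 5 of those 12 members met the thresholds of the study, namely Kcnd2, Kcnma1, Cacna1d, Kcnf1 and Kcnk12.

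**Figure D2:**
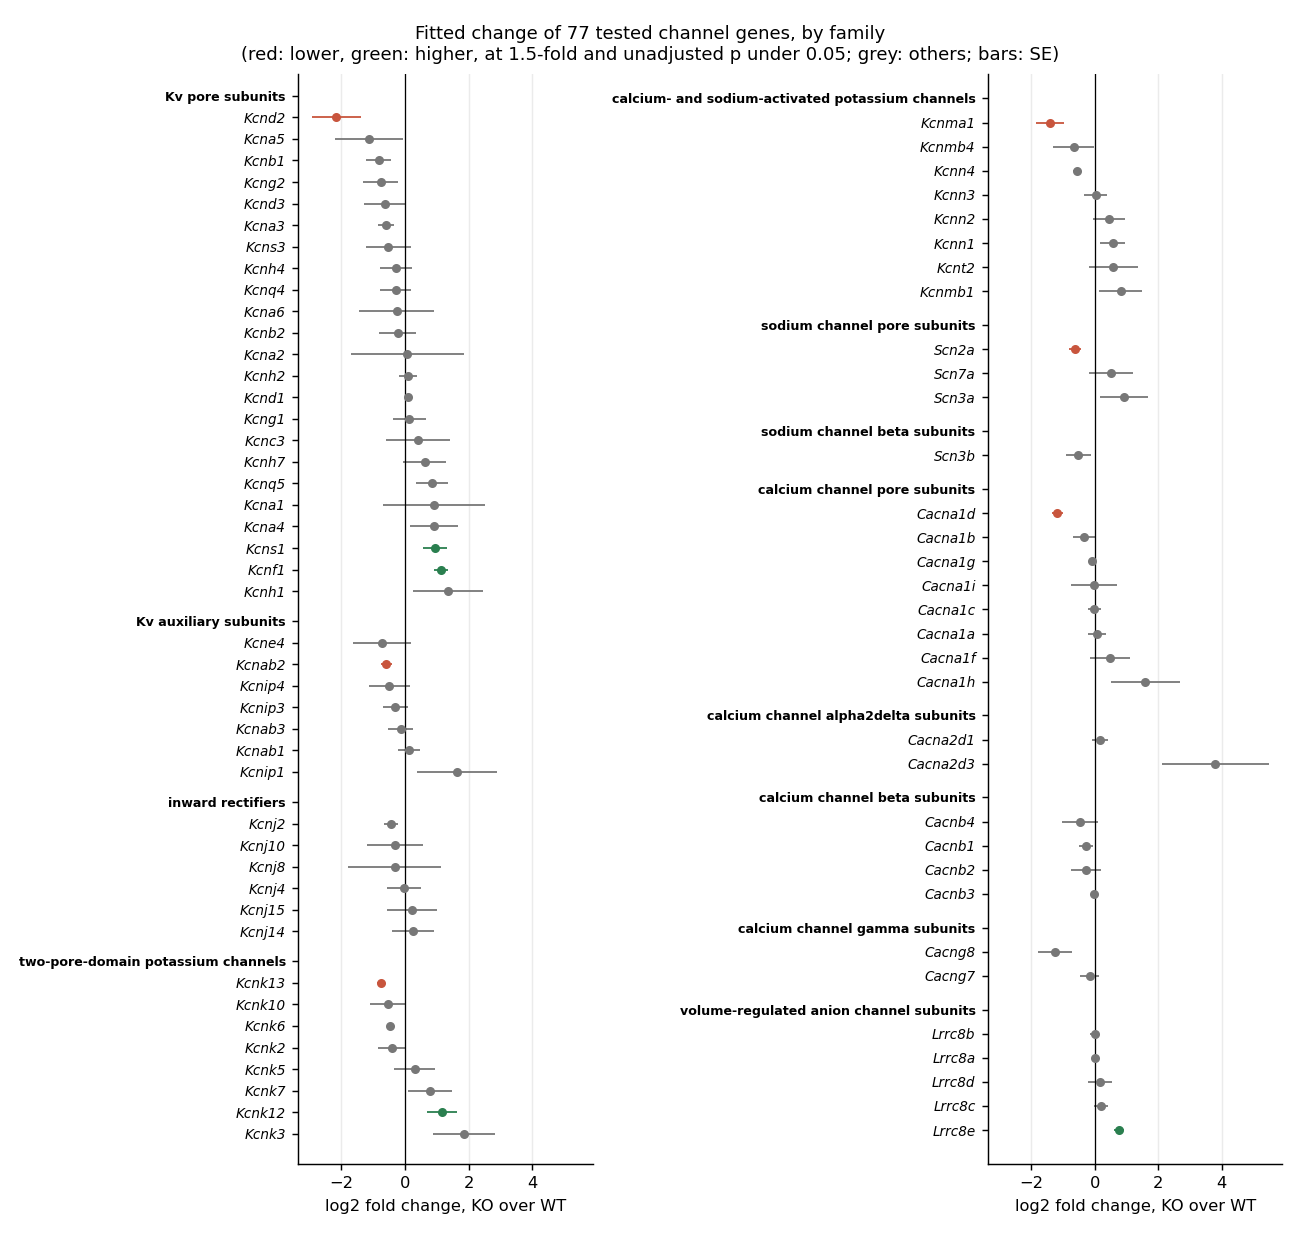
Fitted log2 fold change (HAT1 KO over HAT1 WT, x axis) with its standard error for 77 tested channel genes, grouped by family and ordered within each family. The 6 genes in red and the 4 in green met the 1.5-fold and unadjusted p thresholds. Among the widest bars are those of Cacna2d3, with 86.8% of its summed CPM in KO line 72, and of Kcna2. The latter had 0 counts in WT line 36 and KO lines 41 and 72.

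Kcnk13 encodes a K2P channel that passes a background potassium current and is known in microglia and macrophages. In CPM, it was at 13.8, 14.7 and 14.1 in WT lines 36, 47 and 78 and at 7.75, 9.17 and 8.12 in KO lines 33, 41 and 72. The genotypes were far apart, and the spread within each was small, with means of 14.2 ± 0.443 and 8.35 ± 0.740 CPM (SD, n = 3 each). This gave a log2 fold change of -0.77 ± 0.10 (SE, edgeR adjusted p = 0.0472). Its log2 fold change stayed between -0.84 and -0.71 over 15 other settings, and the unadjusted p was never above 0.0132. The adjusted p stayed under 0.05 in 5 of these, and was above it in each of the 6 fits that left out a line. Kcnk13 lies on chromosome 12 at 99964499 to 100062682 of GRCm38, on the plus strand, and no other annotated gene overlaps its exons.

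Kcnk6 encodes a related K2P channel, also known in macrophages, where potassium leaving through it feeds inflammasome activation. Its level was 15.9, 17.6 and 18.7 CPM in the WT lines and 12.4, 12.2 and 13.6 CPM in the KO lines. The genotypes did not overlap, and the difference was under 1.5-fold (log2 fold change -0.45 ± 0.10 SE, unadjusted p = 0.00308, adjusted p = 0.127, edgeR). Kcnk12, a K2P subunit that on its own gives little current, went the other way, at 0.689, 0.696 and 0.728 CPM in the WT lines and at 0.741, 1.36 and 2.66 CPM in the KO lines. KO line 33 was barely above the WT lines and KO line 72 well above them, and the log2 fold change of 1.17 ± 0.47 (SE) had an unadjusted p of 0.0464 and an adjusted p of 0.332 (edgeR). Without KO line 72 its unadjusted p was no longer under 0.05. The mechanosensitive Kcnk2, the third K2P gene by level, ranged from 5.12 CPM in KO line 33 to 17.9 CPM in KO line 41, so the KO lines spanned all the WT lines. Summed over its 11 genes, the K2P family was at 12.7, 12.8 and 13.5 CPM per kb in WT lines and at 7.92, 10.9 and 12.6 CPM per kb in KO lines. Kcnk13 alone gave 4.44, 4.72 and 4.53 CPM per kb of the WT sums and 2.49, 2.95 and 2.61 CPM per kb of the KO sums. Of the 8 tested K2P genes, 4 had a negative and 4 a positive log2 fold change.

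Among calcium-activated potassium channels, Kcnn4 is the intermediate-conductance channel of T cells, macrophages and dividing fibroblasts. Its level was 26.7, 34.5 and 35.7 CPM in the WT lines and 21.7, 22.6 and 21.6 CPM in the KO lines. The KO lines lay close together below the lowest WT line, with a log2 fold change of -0.56 ± 0.12 (SE), an unadjusted p of 0.00340 and an adjusted p of 0.132 (edgeR). Kcnma1, the pore of the large-conductance BK channel of smooth muscle, was at 6.21, 3.45 and 2.55 CPM in the WT lines and at 1.81, 1.91 and 0.907 CPM in the KO lines. The WT lines were themselves spread, and the log2 fold change of -1.40 ± 0.44 (SE, unadjusted p = 0.0171, adjusted p = 0.236, edgeR) did not pass without WT line 36. An annotated RNA on the opposite strand covers 1016 bases of the Kcnma1 exons, and strand use in the counting was not given in the sources used here. Of the BK beta subunits, Kcnmb1 was highest in KO line 72 (3.82 CPM against 0.424 to 1.70 CPM elsewhere) and Kcnmb4 lowest there (0.0778 CPM against 0.359 to 0.583 CPM). All 8 tested genes of this family had KO line 72 as their highest or lowest line, against 51.5% of all tested genes. This was not particular to the family. It also held for all 7 tested auxiliary Kv genes, for the 2 sodium channel beta genes and for the 2 tested alpha2delta genes. For Kcnn4 the margin was small, at 21.58 CPM beside 21.68 CPM in KO line 33. Summed over its 11 genes, the family was at 6.93, 8.29 and 8.42 CPM per kb in the WT lines and at 6.08, 5.99 and 6.77 CPM per kb in the KO lines, with KO line 72 just under WT line 36. Kcnn4 alone gave 5.22, 6.75 and 6.98 CPM per kb of the WT sums and 4.24, 4.41 and 4.22 CPM per kb of the KO sums. Of the 8 tested genes, 3 had a negative and 5 a positive log2 fold change, so the sum mainly restates Kcnn4.

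Voltage-gated potassium (Kv) channels were the largest group, with 33 pore genes of which 23 were tested, and most were at low levels. Summed over these 33 genes, the level was 6.11, 6.44 and 6.41 CPM per kb in WT lines 36, 47 and 78. The sum was 7.64, 6.62 and 6.998 CPM per kb in KO lines 33, 41 and 72, so each KO line was above each WT line. Much of this came from 1 gene, Kcnf1, described below. It gave 0.728, 0.690 and 0.658 CPM per kb of the WT sums and 1.365, 1.168 and 2.03 CPM per kb of the KO sums. Of the 23 tested genes, 11 had a negative and 12 a positive log2 fold change, so the sum is not a trait of the whole group. The sums of the auxiliary Kv subunits and of the inward rectifiers overlapped between genotypes. Kcnd1, a fast inactivating A-type channel, led at 7.61, 6.86 and 8.38 CPM in the WT lines and 8.65, 7.93 and 8.09 CPM in the KO lines, and the genotypes overlapped. Kcnf1 encodes a silent subunit that forms no channel alone but alters the Kv pores it joins. It was at 3.49, 3.30 and 3.15 CPM in the WT lines and at 6.54, 5.59 and 9.72 CPM in the KO lines. Every KO line exceeded every WT line and the WT lines hardly differed, giving means of 3.32 ± 0.167 and 7.28 ± 2.16 CPM (SD, n = 3 each) and a fitted log2 fold change of 1.14 ± 0.23 (SE, unadjusted p = 0.00218, adjusted p = 0.112, edgeR). Its share of the summed Kv pore level per kb was 10.97 ± 0.846% in the WT lines and 21.5 ± 6.50% in the KO lines (SD, n = 3 each). The exact permutation p was 0.1 (two-sided), the smallest that 3 lines against 3 can give. Kcnf1 was named for its CPM, which already did not overlap between genotypes, so this p is no separate support. Kcnf1 is a gene of chromosome 12, at 17172100 to 17176888 on the minus strand.

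Kcns1, another silent subunit, was at 0.345, 0.472 and 0.586 CPM in the WT lines and at 0.898, 1.21 and 0.596 CPM in the KO lines. KO line 72 was level with the highest WT line, and the log2 fold change of 0.94 ± 0.37 (SE) had an unadjusted p of 0.0421 and an adjusted p of 0.323 (edgeR), which passed in 9 of 15 other settings at an unadjusted p under 0.05. Kcnd2, an A-type channel of neurons and heart, was at 4.07 and 3.65 CPM in WT lines 36 and 47 but at 0.829 CPM in WT line 78, inside the KO range of 0.202 to 0.917 CPM. In the fit of all lines its log2 fold change was -2.16 ± 0.77 (SE, unadjusted p = 0.0299, adjusted p = 0.291, edgeR). WT line 78 was also the WT line with few Y-linked counts, and the only WT line in the fit of the lines with few such counts. The log2 fold change of -0.36 in that fit therefore restates the level of WT line 78. A link of Kcnd2 to Y-linked expression was not tested. Kcna3, a potassium channel of T cells and macrophages, was at 1.58, 1.86 and 2.45 CPM in the WT lines and at 1.34, 1.46 and 1.09 CPM in the KO lines. The genotypes did not overlap, but the log2 fold change of -0.60 ± 0.25 (SE) missed the unadjusted threshold (unadjusted p = 0.0521, adjusted p = 0.347, edgeR).

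The auxiliary Kv subunits included Kcnab2, a cytoplasmic beta subunit of the aldo-keto reductase fold. It was at 36.4, 37.1 and 41.5 CPM in the WT lines and at 32.01, 23.5 and 21.03 CPM in the KO lines. No KO line reached the WT range, with a log2 fold change of -0.59 ± 0.16 (SE, unadjusted p = 0.0111, adjusted p = 0.206, edgeR), a change of 1.501-fold that only just met the threshold. Kcne4, a single-pass subunit that inhibits several Kv channels, was at 15.3, 16.1 and 37.5 CPM in the WT lines and at 21.1, 19.8 and 1.30 CPM in the KO lines. Its difference between genotypes (log2 fold change -0.71 ± 0.91 SE, unadjusted p = 0.466, edgeR) rested on 2 lines, and its log2 fold change was -0.16 without KO line 72 and -0.14 without WT line 78. Kcnip1, a calcium-binding partner of A-type channels, did not overlap between genotypes but had only 0 to 16 counts per line. It was at 0 counts in WT lines 36 and 78, which allows up to 0.0398 and 0.0303 CPM by counting error, and at 0.178 to 0.182 CPM in the KO lines, beside 0.174 CPM in WT line 47.

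Inward rectifiers carry potassium into the cell more easily than out and stabilize the resting potential. None of the 6 tested genes passed at an unadjusted p under 0.05. Kcnj2, the main classical rectifier here, was at 18.3, 20.7 and 27.4 CPM in the WT lines and at 12.5, 16.1 and 20.5 CPM in the KO lines, with overlap (log2 fold change -0.43 ± 0.23 SE, unadjusted p = 0.101, edgeR). Without KO line 72 its log2 fold change was -0.62 with an unadjusted p of 0.0254. Kcnj10 ranged from 1.51 to 17.5 CPM and Kcnj15 from 2.84 to 17.6 CPM over the lines, each with both genotypes across the range.

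The calcium channel pores showed a single gene that met the thresholds. Cacna1d encodes the pore of an L-type channel that opens at more negative potentials than Cacna1c, known from pacemaking, hearing and hormone release. It was at 10.3, 14.1 and 14.9 CPM in the WT lines and at 5.23, 6.58 and 5.61 CPM in the KO lines. The highest KO line was below the lowest WT line, with means of 13.1 ± 2.46 and 5.81 ± 0.697 CPM (SD, n = 3 each), or 44.4% of the WT mean in HAT1 KO. Its fitted log2 difference of -1.17 ± 0.18 (SE) had an unadjusted p of 0.000460 and an adjusted p of 0.0609 (edgeR), just short of the threshold, and the unadjusted p stayed at or below 0.00295 in 15 other settings. Cacna1d lies on chromosome 14 at 30039939 to 30491455, on the minus strand, and shares 589 exonic bases with Chdh on the opposite strand.

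The 2 most abundant pores overlapped between genotypes. Cacna1c was at 103.8, 105.0 and 137.1 CPM in the WT lines and at 92.2, 107.5 and 145.0 CPM in the KO lines, with a log2 fold change of -0.01 ± 0.19 (SE). Cacna1g was at 95.1, 97.8 and 109.1 CPM in the WT lines and at 85.9, 101.6 and 96.3 CPM in the KO lines, with a log2 fold change of -0.09 ± 0.09 (SE). As a share of the summed pore level per kb, Cacna1d was at 5.29 ± 0.867% in the WT lines and at 2.39 ± 0.683% in the KO lines (SD, n = 3 each, exact permutation p = 0.1, two-sided), while Cacna1c was at 27.6 ± 1.96% and 27.0 ± 1.87% (p = 0.7, exact permutation test). Cacna1d was named for its CPM, which already did not overlap between genotypes, so its p is no separate support.

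Among the auxiliary calcium channel subunits, no gene passed at an unadjusted p under 0.05. Cacnb3 held 90.0% to 93.5% of the beta subunit level per kb in every line. Cacna2d1, the alpha2delta subunit that binds gabapentin, was at 82.7 to 90.7 CPM in the WT lines and at 68.8, 82.0 and 137.2 CPM in the KO lines, with KO line 72 the highest. Cacng7, a gamma subunit better known as a partner of glutamate receptors, was at 25.1, 20.2 and 14.0 CPM in the WT lines and at 11.8, 21.1 and 20.3 CPM in the KO lines. The genotypes overlapped for each of these 3 genes.

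Of the 9 sodium channel pore genes, 6 did not pass the filter. Scn2a, a channel of axons, was at 5.25, 4.78 and 6.14 CPM in the WT lines and at 4.09, 3.27 and 3.18 CPM in the KO lines. The KO lines were all below the WT lines, with a log2 fold change of -0.62 ± 0.17 (SE, unadjusted p = 0.0112, adjusted p = 0.206, edgeR). It lies on the same chromosome as the targeted gene, 5.62 Mb from Hat1, in a cluster with Scn3a and Scn7a, whose log2 fold changes were 0.93 ± 0.75 and 0.50 ± 0.69 (SE) with unadjusted p of 0.259 and 0.496 (edgeR). Scn3a was highest in KO line 41 (1.98 CPM against 0.311 to 0.621 CPM elsewhere) and Scn7a in KO line 33 (3.53 CPM against 0.799 to 2.06 CPM).

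The volume-regulated anion channel is a hexamer of LRRC8A, which it cannot do without, and of LRRC8B to LRRC8E, which set what passes through it. All 5 genes were expressed. Lrrc8a was at 31.7, 29.2 and 30.5 CPM in the WT lines and at 31.7, 29.7 and 30.7 CPM in the KO lines. The genotypes differed by less than the spread of the lines, with a log2 fold change of 0.01 ± 0.07 (SE), although 2944 of its exonic bases are shared with other annotated genes, most of them with the protein-coding Gm28035 on the same strand. Lrrc8b (log2 fold change 0.00 ± 0.14 SE), Lrrc8c (0.20 ± 0.21 SE) and Lrrc8d (0.16 ± 0.38 SE) also overlapped between genotypes. Lrrc8d spread most within a genotype, with 19.1, 28.7 and 56.5 CPM in KO lines 33, 41 and 72.

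Lrrc8e, the least abundant of the 5, was the exception. It was at 3.71, 4.38 and 4.95 CPM in the WT lines and at 6.71, 7.54 and 7.93 CPM in the KO lines. Each KO line exceeded each WT line, with means of 4.35 ± 0.621 and 7.40 ± 0.622 CPM (SD, n = 3 each). The fitted log2 fold change was 0.77 ± 0.15 (SE, unadjusted p = 0.00223, adjusted p = 0.113, edgeR). Its log2 fold change ranged from 0.59 to 0.88 over 15 other settings, with unadjusted p up to 0.0497. As a share of the summed Lrrc8 level per kb, Lrrc8e made up 3.38%, 4.05% and 4.94% in the WT lines but 7.02%, 6.04% and 6.01% in the KO lines (exact permutation p = 0.1, two-sided). Its CPM already did not overlap between genotypes, so this p is no separate support. The subunit remained a minor one in every line, beside 39.9% to 50% for Lrrc8c and 22.3% to 31.8% for Lrrc8a. Lrrc8e lies on chromosome 8 at 4226827 to 4237470, on the plus strand.

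**Figure D3:**
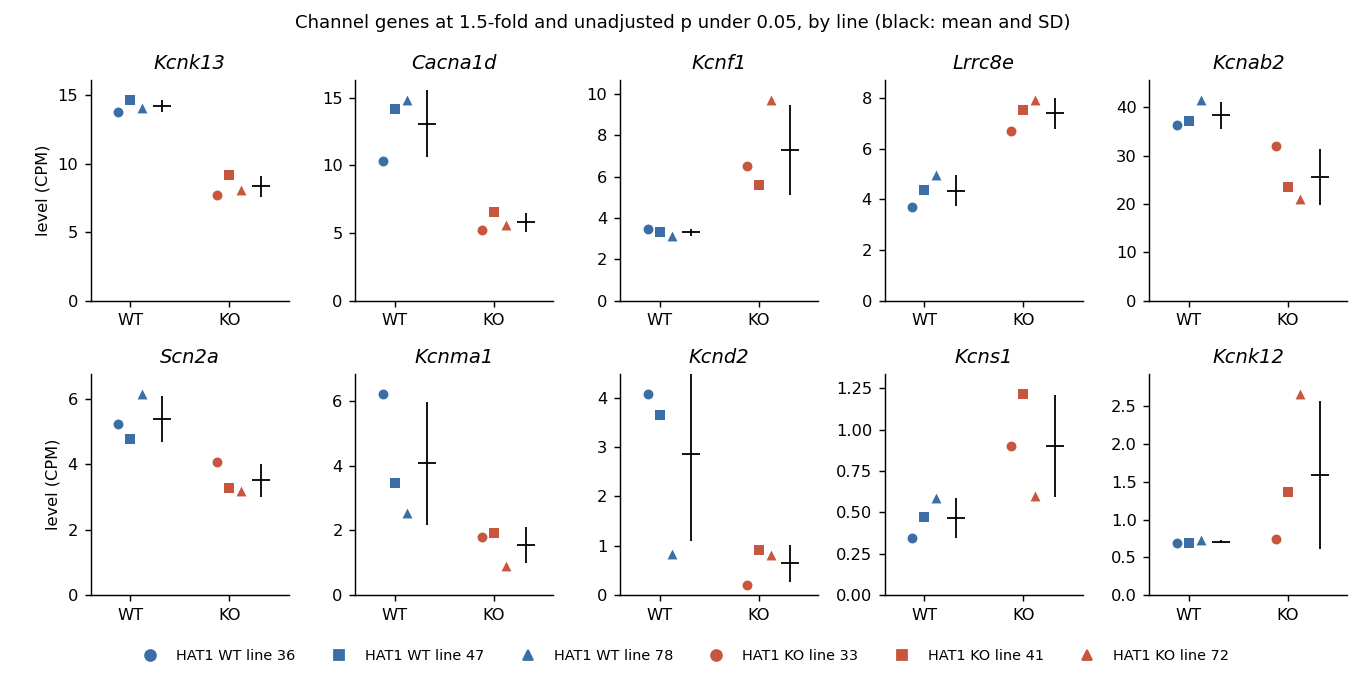
Level in CPM in each line for the 10 channel genes at 1.5-fold and an unadjusted p under 0.05, in order of p (blue HAT1 WT, red HAT1 KO, black mean and SD, y axes from 0). Kcnk13, Cacna1d, Kcnf1 and Lrrc8e in the upper row show a clear gap between genotypes, while WT line 78 lies in the KO range for Kcnd2 and KO line 33 meets the WT lines for Kcnk12.

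Lane 6 held 1 WT and 2 KO lines and lane 7 held 1 line of each genotype, so within-lane differences rest on single WT lines. For each of these 10 genes but Kcnd2 the genotypes did not overlap, which fixed the direction within a lane beforehand. Kcnd2 had a log2 difference of -2.86 within lane 6 and of 0.15 within lane 7. Within lane 6 the log2 difference was -0.89 for Kcnk13, -1.38 for Cacna1d, 1.30 for Kcnf1 and 0.74 for Lrrc8e. Within lane 7 it was -0.62, -1.17, 0.83 and 0.61 for the same genes.

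The bases just upstream of the annotated start are given for 3 of these genes, Kcnk13, which passed at the adjusted p, and Kcnf1 and Lrrc8e, the clearest of those that were higher. They are 250 bases before the RefSeq start in GRCm38.p6, written 5′ to 3′ on the strand of the gene, at chr12:99964249-99964498 (plus strand) for Kcnk13, chr12:17176889-17177138 (minus strand) for Kcnf1 and chr8:4226577-4226826 (plus strand) for Lrrc8e. Capitals mark matches to GAGGAA, the core of the site bound by the myeloid factor PU.1, on either strand.
Kcnk13: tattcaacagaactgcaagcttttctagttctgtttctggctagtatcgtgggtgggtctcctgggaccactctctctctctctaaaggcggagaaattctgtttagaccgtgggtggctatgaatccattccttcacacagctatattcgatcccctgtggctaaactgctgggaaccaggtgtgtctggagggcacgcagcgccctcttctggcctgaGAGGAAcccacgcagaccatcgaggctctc
Kcnf1: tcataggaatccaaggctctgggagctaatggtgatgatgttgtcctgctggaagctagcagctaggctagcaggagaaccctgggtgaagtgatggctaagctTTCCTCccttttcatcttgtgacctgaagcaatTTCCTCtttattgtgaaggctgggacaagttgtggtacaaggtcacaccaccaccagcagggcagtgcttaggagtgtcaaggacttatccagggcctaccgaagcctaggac
Lrrc8e: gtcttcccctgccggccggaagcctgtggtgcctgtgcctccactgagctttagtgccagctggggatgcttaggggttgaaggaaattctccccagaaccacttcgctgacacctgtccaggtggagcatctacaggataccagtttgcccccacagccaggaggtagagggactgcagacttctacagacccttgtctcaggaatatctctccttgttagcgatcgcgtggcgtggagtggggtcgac
The letters GAGGAA or TTCCTC stood once in the Kcnk13 window, at 2 places in the Kcnf1 window and nowhere in the Lrrc8e window. They occur in 23.3% of 32851 mouse promoter windows of the same length. The 10 genes above have 14 windows in all, and 3 of the genes had a match in a window. A share of genes is not a share of windows, and a match is no sign that a protein binds there. None of the 3 printed windows held GGGCGG (found in 32.7% of all windows), TATAAA (12.4%) or CCAAT (33.8%) on either strand. Of the 10 genes, 6 had GGGCGG, 2 had TATAAA and 2 had CCAAT in a window. The GC content of the printed windows was 52.8% (Kcnk13), 51.2% (Kcnf1) and 58.0% (Lrrc8e), beside a median of 52.4%.

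Several of the lower genes are known from macrophages, whose markers were also lower, so both were set side by side, a choice made after the values were seen. The 12 markers, among them Csf1r, Adgre1 and Cd68, summed to 3071, 3102 and 2702 CPM in the WT lines and to 1726, 1812 and 1383 CPM in the KO lines, and the mean in HAT1 KO was 55.4% of that in HAT1 WT. All 12 met the 1.5-fold and unadjusted p thresholds as lower, with a median log2 fold change of -0.86. In bulk RNA, fewer cells of a type and less RNA per cell cannot be told apart. Kcnk13 per 1000 CPM of macrophage markers was 4.50, 4.73 and 5.21 CPM for WT and 4.49, 5.06 and 5.87 CPM in the KO lines, so its genotypes overlapped on that scale. Overlap was also found for Kcnn4, at 8.69 to 13.2 CPM per 1000 in the WT lines and 12.5 to 15.6 in the KO lines. It was found for Kcnk6, Kcna3, Kcnab2, Scn2a and Kcnma1 too, and Kcnd2 had overlapped before this scaling. Cacna1d per 1000 CPM of markers overlapped as well, at 3.35 to 5.49 CPM in the WT lines and 3.03 to 4.06 CPM in the KO lines. Genes and markers were both lower in HAT1 KO, so this ratio draws the genotypes together whatever the source of the RNA. The part of macrophage RNA in the lower channel genes was not tested.

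**Figure D4:**
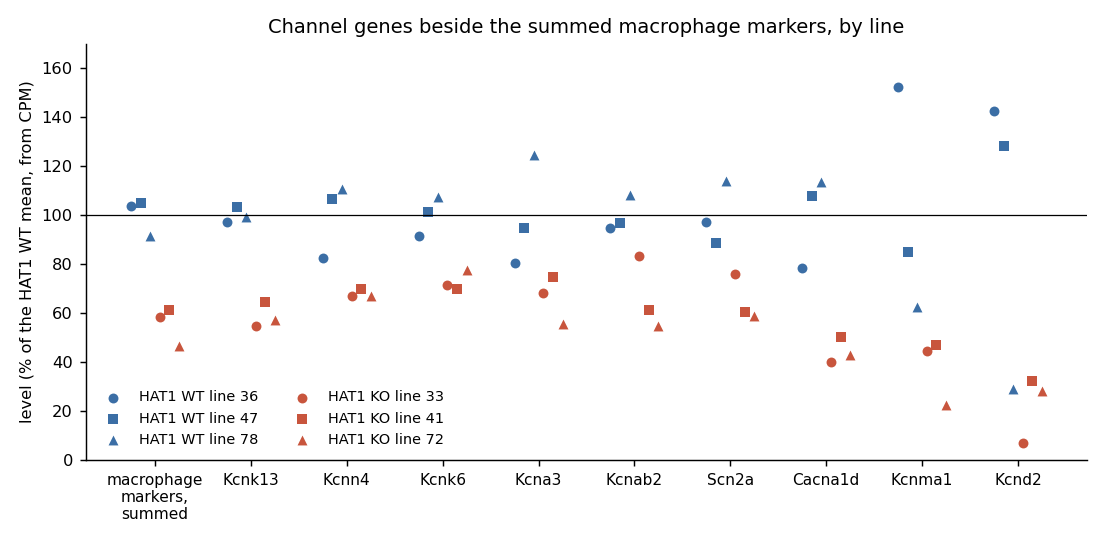
Level in each line as a percentage of the HAT1 WT mean (y axis from 0, line at 100) for the summed 12 macrophage markers and for 9 channel genes, namely the 8 whose KO lines lay wholly below the WT lines, so that their order was fixed by how they were picked, and Kcnd2. KO lines are at 46.7% to 61.2% for the markers and at 54.6% to 64.6% for Kcnk13, and WT line 78 is at 29.1% for Kcnd2.

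Other marker lists were summed in the same way. The 9 smooth muscle and myofibroblast markers summed to 4758 to 5823 CPM in the WT lines and to 6150 to 7641 CPM in the KO lines, and 4 of them passed at an unadjusted p under 0.05 as higher. The 7 neuron markers in the table summed to 38.3 to 57.1 CPM in the WT lines and to 59.5 to 81.0 CPM in the KO lines, with 1 of 6 tested, Tubb3, passing as higher. Tubb3 alone gave 35.0 to 49.3 CPM in the WT lines and 49.3 to 68.0 CPM of the KO sums, and Stmn2 gave 19.3 CPM in KO line 72. Of 12 proliferation markers, 7 passed as higher, and their sum was 483.1 to 721.9 CPM in the WT lines and 676.7 to 995.5 CPM in the KO lines. Of 5 tested endothelial markers, 2 passed as lower, with sums of 11.6 to 12.7 CPM and 9.18 to 12.5 CPM. The proliferation and the endothelial sums overlapped between genotypes. The part of these cells or states in the channel genes was not tested.

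Some channel genes had most of their summed level in a single line. In 6 of the 78 tested channel genes (7.69%), 1 line held over 50% of the summed CPM of the 6 lines. This was the case for 1.29% of all tested genes, which were not matched to the members for level. For 4 of them that line was KO line 72 and for 2 it was KO line 33. This limit was set after the values had been seen. Kcna2 and Kcnh1 only just passed it. Kcna2 had 50.8% in KO line 33 beside 26.3% and 22.9% in WT lines 47 and 78. Kcnh1 had 52.1% in KO line 72 beside 18.9% in WT line 78 and 17.9% in KO line 33.

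Cacna1h, the pore of a T-type calcium channel, was at 73.6 CPM in KO line 72 and at 5.56 to 14.4 CPM in the other 5 lines. Kcnk3, an acid-sensitive K2P channel, was at 9.75 CPM there and at 0.782 to 1.27 CPM elsewhere. Cacna2d3, an alpha2delta subunit, was at 5.06 CPM there and at 0.0225 to 0.355 CPM elsewhere, and its log2 fold change of 3.80 ± 1.69 (SE, unadjusted p = 0.0634, edgeR) rested on that library. Kcnh1, a Kv channel of neurons and tumour cells, was at 7.99 CPM in KO line 72 and at 0.326 to 2.89 CPM in the others. The same line gave no count of Kcnj8, the pore of the ATP-sensitive potassium channel of vascular smooth muscle and pericytes, which allows up to 0.0389 CPM by counting error, where the other lines had 0.994 to 5.87 CPM. Abcc9, the sulfonylurea receptor with which Kcnj8 assembles, was at 0.0519 CPM in KO line 72 from 4 counts and at 2.29 to 7.97 CPM in the others.

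KO line 33 stood out for axonal Kv1 genes. Kcna1 was at 3.44 CPM there, from 306 counts, and at 0 to 0.845 CPM in the other lines. Kcna2 was at 0.719 CPM there, at 0.373 and 0.323 CPM in WT lines 47 and 78 and at 0 counts in the other 3 lines. The Schwann cell transcription factor Sox10 had 67.7% of its summed CPM in the same line, and Erbb3 and Foxd3 had 57.2% and 71.9%. These are 3 of 7 markers, and of the others S100b was highest in WT line 78 (0.849 CPM against 0.707 CPM in KO line 33) and Cdh19 was at 2.68 CPM in WT line 78 and 3.14 CPM in KO line 33. The 7 Schwann cell and glial markers summed to 26.9 CPM in KO line 33, to 1.86, 5.83 and 10.7 CPM in the WT lines and to 1.12 and 0.609 CPM in KO lines 41 and 72. WT lines 47 and 78 were next highest for Sox10, for Kcna1 and for Kcna2. Their part in the Kcna1 and Kcna2 values was not tested.

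**Figure D5:**
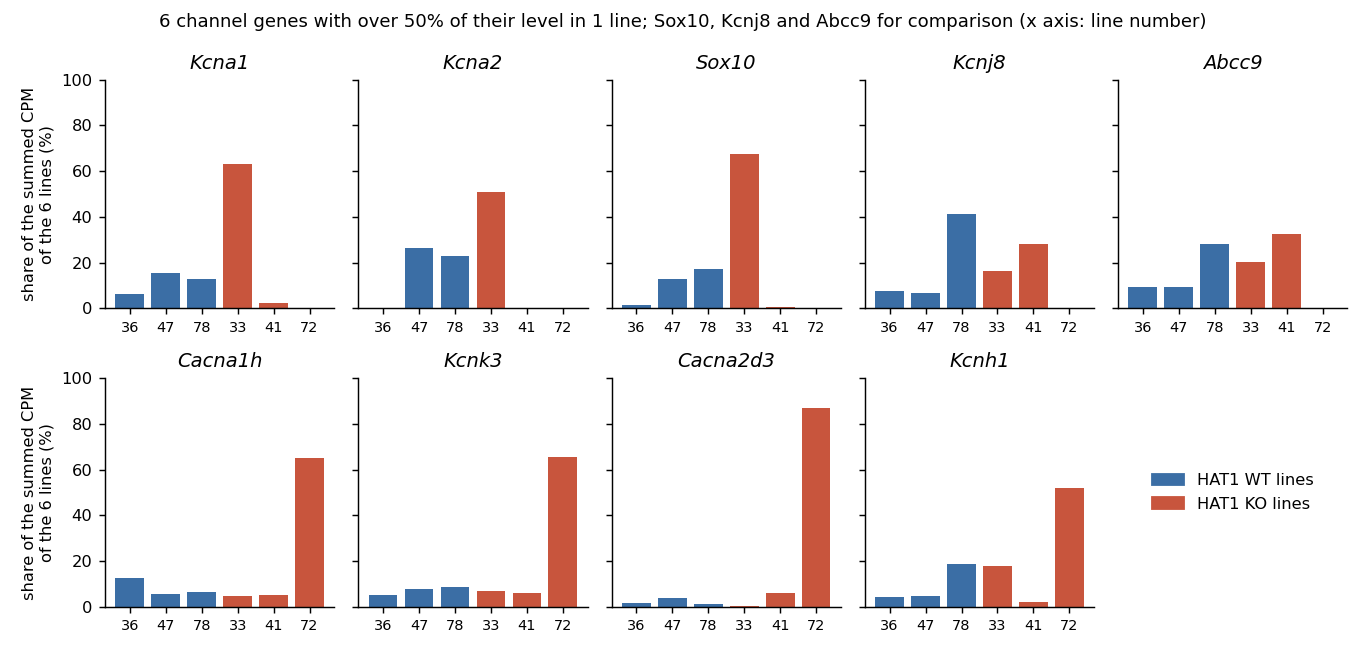
Share of the summed CPM of the 6 lines held by each line (y axis in percent, from 0 to 100) for the 6 channel genes with over 50% in 1 line, with Sox10, Kcnj8 and Abcc9 for comparison. Kcna1 and Kcna2 have KO line 33 as the highest line, as Sox10 does, KO line 72 holds 0% of Kcnj8 and 0.211% of Abcc9, and Cacna2d3 has 86.8% in KO line 72.

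Other transport genes were read from 5 lists of partners: store and release calcium channels, TRP and mechanosensitive channels, chloride channels, ion pumps and cotransporters, and channel regulators. Of 119 genes listed, 96 were tested, and none passed at an adjusted p, while 14 were lower and 3 were higher at an unadjusted p under 0.05 (edgeR). That share of all tested genes was 8.77% in the lower and 5.88% in the higher direction. At 1.5-fold and an unadjusted p under 0.05, 7 were lower and 1 was higher, beside 4.62% and 1.5% of all tested genes. Atp1b1 and Atp1b2, beta subunits of the sodium pump, had log2 fold changes of -0.63 ± 0.17 and -0.96 ± 0.39 (SE). Atp1b1 was at 32.1, 33.2 and 43.1 CPM in the WT lines and at 21.6, 28.1 and 20.5 CPM in the KO lines, without overlap (unadjusted p = 0.00896, edgeR). Atp1b2 had an unadjusted p of 0.0463 (edgeR), and missed the 0.05 limit in 9 of 15 other settings. Ano3, of the anoctamin family, had a log2 fold change of -0.93 ± 0.17 (SE), and Trpm2, a cation channel opened by oxidants, one of -0.73 ± 0.23 (SE). Trpv6, an epithelial calcium channel, and Best3, a bestrophin, had at most 22 and 33 counts in any line. Fgf13, a binding partner of sodium channel tails, was lower (log2 fold change -1.03 ± 0.37 SE, unadjusted p = 0.0307, edgeR) and its relative Fgf12 was higher (1.33 ± 0.53 SE, unadjusted p = 0.0437, edgeR), the latter from 7 to 36 counts per line. Fgf13 in WT line 78, at 1.63 CPM, lay within the KO range, and its unadjusted p was above 0.05 in 6 of 15 other settings. Its log2 fold change was -0.06 in the lines with few Y-linked counts, where WT line 78 was the only WT line, so that value restates its level. All 14 store and release channel genes were tested, and none met the 1.5-fold and unadjusted p thresholds.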

How the data were processed

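RNA of primary mouse embryonic fibroblasts was sequenced from 3 HAT1 WT and 3 HAT1 KO lines, grouped by the genotype in their titles. The authors deposited 1 table of raw read counts per gene. They prepared TruSeq (v2) libraries from total RNA, and their processing notes name mm10 and edgeR. The aligner, the counter and the use of strand were not given in the sources used here. The table also held the authors' own comparison (log2 fold changes, log2 mean CPM, F scores, p-values and q-values), which was not used. No column of sample values was left unassigned.

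Symbols matching Kcn, Scn, Cacn or Lrrc8 pore and auxiliary subunit names gave the members, sorted into 12 families. Some genes are not reported here: 1 matching gene was left out of the set, 1 member enters totals only, and 1 glial marker was dropped from its list. The members, families and comparison lists were chosen with earlier results of these data known. Identifiers of all 17512 genes matched GENCODE M21 (GRCm38), which gave positions, exon lengths and overlaps. 37 members share exonic bases with another gene, and such counts are uncertain.

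Counts were tested with edgeR 4.0.16 (R 4.3.3): filterByExpr, TMM scaling, quasi-likelihood fit on genotype alone, two-sided, with Benjamini-Hochberg adjustment over 14773 genes. CPM are TMM-scaled, and CPM per kb divides by exon length. The SE of a log2 fold change is its size over the square root of F. Shares within a family were compared by exact permutation. With 3 lines against 3, p cannot go below 0.1, and p-values measure the spread between these lines, which the labels do not tie to separate litters. Total counts were 67720628 to 98786746, so counting error mattered for genes with few counts. For others the precision came from the spread between lines, which the quasi-likelihood fit estimated gene by gene. The common dispersion over all tested genes was 0.0747. Limits for 0 counts (3 counts) cover counting error only. The procedure was tested on simulated counts with known changes. Promoter sequences came from RefSeq (GRCm38.p6).

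Named genes were Hat1, the 5 Lrrc8 genes, the highest member of each family per length, members that met either threshold, up to 3 further members changed 1.5-fold without overlap of the genotypes, and partner genes at the 1.5-fold and p thresholds. Others, such as Kcna1, Kcnj8 and Cacna1h, were added after their values were seen. Alternatives were other scalings (DESeq2 size factors or library size), DESeq2 1.42.0, voom (limma 3.58.1) with quality weights, no filter, a mean of at least 50 counts, halved counts, lane as a term, only the lines with few Y-linked counts, and each line left out in turn.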

Additional observations from a re-analysis of the deposited data

How the results depend on the processing

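No paired analysis was possible because the genotypes share no line numbers. The count of channel genes at an adjusted p under 0.05 (1 in edgeR) was 0 with DESeq2 size factors, without a filter, with lane as a term, in the lines with few Y-linked counts and in each of the 6 fits without 1 line (0 to 0). It was 9 in the DESeq2 Wald test, in which 871 of 14773 genes passed, against 78 in the main edgeR fit. Of all tested genes, 58 passed with DESeq2 size factors, 46 without a filter and 2 with lane as a term. Without WT line 36, WT line 47 or KO line 33, 0 genes passed at all. Without WT line 78, KO line 41 or KO line 72 it was 4, 6 and 73 genes. The lower count (6) was 3 with lane as a term and 5 to 6 with 1 line left out. In those fits, 3.17% and 3.45% to 4.99% of all tested genes were lower. The higher count (4) was 7 without a filter, 2 with lane as a term and 3 to 7 with 1 line left out (7 without KO line 33). The higher share of all tested genes was 1.75%, 0.406% and 0.739% to 2.33% in those fits. The median log2 fold change of members (-0.01) was -0.17 in voom, 0.11 in the lines with few Y-linked counts and -0.10 to 0.032 with 1 line left out. Hat1 kept its direction, with a log2 fold change of -1.10 with lane as a term, -0.97 in the lines with few Y-linked counts and -1.08 to -0.88 with 1 line left out, and its adjusted p was above 0.05 in each of these.

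Over 487 comparisons of named genes with an alternative, 412 kept direction and side of the threshold, 47 lost it, 7 gained it and 21 changed sign. Each gene that changed sign had an unadjusted p above 0.05 in the fit of all lines. In voom these were Lrrc8d (-0.26), Cacna2d1 (-0.083) and Cacnb3 (0.051). With library size alone it was Lrrc8b (-0.0007446). With lane as a term these were Lrrc8b (-0.067), Cacnb3 (0.046) and Cacng7 (0.051). In the lines with few Y-linked counts these were Lrrc8b (-0.16), Kcnd1 (-0.012) and Cacng7 (0.36). With 1 line left out the values ran from -0.013 to 0.044 for Lrrc8a, -0.095 to 0.11 for Lrrc8b, -0.37 to 0.46 for Lrrc8d, -0.18 to 0.35 for Cacna2d1, -0.12 to 0.074 for Cacnb3 and -0.35 to 0.065 for Cacng7. The causes were not tested. Unadjusted p stayed under 0.05 in all 15 alternatives for Kcnk13, Cacna1d, Kcnf1, Lrrc8e, Kcnk6 and Kcnn4. Kcnk12 lost it in 8, Kcns1 in 6, Kcnd2 in 5, Kcnma1 in 3, Kcnab2 in 2 and Scn2a in 1. The fit of the lines with few Y-linked counts had 1 WT line, assumed to vary as the KO lines do. Y-linked expression and lane were not balanced between genotypes, and 31 channel genes had too few counts to be tested at this depth.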
